A study of Mus musculus with 5 samples.

Results

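Calca, Chga, Chgb, Resp18, Scg5 and Syp are 6 of the 32285 genes counted in the deposited tables, and they are genes that pulmonary neuroendocrine cells are known to express. They were chosen with their readout in view: their unique molecular identifiers (UMIs, each standing for 1 captured transcript molecule), their positive cells and their joint detection, Het against KO, in epithelial-gated cells. Those values are therefore given as a description with no test. A gated cell is a kept cell with at least 1 UMI of Epcam or Cdh1, the surface adhesion molecules of epithelia. The cells came from dissociated whole lungs of mice at E18.5, shortly before birth. Het1 and Het2 are the Zswim8+/- embryos, and KO1, KO2 and KO3 are the Zswim8-/- embryos, with 1 droplet library of 3′ ends per embryo. Where values of all 5 are given, they stand in that order. Both groups carry at least 1 mutant copy of Zswim8, the labels name neither the allele nor a Cre line, and no wild-type lung is analysed here.

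Pulmonary neuroendocrine cells are rare sensory cells of the airway epithelium, scattered singly or clustered into neuroepithelial bodies at branch points. They arise from airway progenitors, keep their neighbours from the same fate through Notch ligands, and release peptides and amines from dense-core granules when stimulated. Chromogranins A and B (Chga, Chgb) help to form these granules, and Scg5, also called 7B2, is the chaperone of the prohormone convertase Pcsk2. Resp18 is a granule lumen protein related to a domain of Ptprn, Calca encodes calcitonin and calcitonin gene-related peptide (CGRP), and Syp encodes synaptophysin, a membrane protein of small clear vesicles.

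Stretches of the promoters are shown because the genes were found together in the same cells, as described next, and 2 short motifs were searched in them. RefSeq (GRCm38.p6) gave 250 bases before and 50 bases after the start of all 6 genes. The core of the cyclic AMP response element, TGACG on either strand, was found in 4 of the 6 (Calca, Chga, Chgb and Scg5) and in 20.81% of 32851 promoters of that length. The full element TGACGTCA, which contains the core, was found in Chgb alone of the 6 and in 1.79% of the promoters. Neither was found in the Resp18 or Syp window. A match is a string of letters, not a shown binding site. The starts are those of RefSeq. The gene coordinates given further below come from GENCODE M21, and the Chgb stretch lies inside the span they give for Chgb. Below are 30-base stretches, read 5′ to 3′ on the gene's strand, with the motif in capitals.
Calca, chr7:114636406-114636435, minus strand, core element from 65 bases before the start: ggaagcacagaggTGACGcaatctgtctgg
Chga, chr12:102554884-102554913, plus strand, core element from 44 bases before the start: gggggcggtcctaTGACGtaatttcctggg
Chgb, chr2:132781559-132781588, plus strand, full element from 72 bases before the start: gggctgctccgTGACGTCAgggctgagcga
Scg5, chr2:113829250-113829279, minus strand, core element from 175 bases before the start: taaaggaggtaaaTGACGttcataggggtc

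The tables held 56608582 to 93708304 UMIs per library, and 3051 to 4634 barcodes per library were kept as cells. The gate held 5016 cells, 1342 and 1131 from the Het libraries against 714, 806 and 1023 from the KO-labelled ones. Their median depth was 14341 and 16730 UMIs in the Het libraries against 13059, 16320.5 and 17428 in the KO-labelled ones. KO1 was the shallowest, with 14953140 gated UMIs against 22988778 to 29026055 in the other 4. Zswim8, the targeted gene, was at 36.4 and 38.5 CPM (UMIs per 1000000, over kept cells) in the Het libraries against 38.3, 39.4 and 40.9 in the KO-labelled ones. It was not lower in the latter, so the word KO below stands for the label. As the allele is not named, these counts of 3′ ends cannot decide the genotype either way. KO1 and KO2 were female and the other 3 embryos male by their sex-linked transcripts. The 7 club cell markers, from the airway epithelium in which neuroendocrine cells lie, summed to 10027 and 9739 CPM of the gated UMIs in the Het libraries against 3851, 4349 and 2321 in the KO-labelled ones. The drop was not confined to airway genes. The 8 alveolar type 2 markers stood at 33658 and 27326 against 23839, 19126 and 24282 CPM. The 8 alveolar type 1 markers stood at 3240 and 3763 against 2436, 2436 and 2773 CPM. The 8 ciliated markers were lower too, at 1023 and 773 against 530, 644 and 355 CPM. The 5 mesenchymal markers overlapped, at 735 and 1414 against 3259, 761 and 1661 CPM. The part of these differences in the values below was not tested. No 2 libraries shared more than 7 kept barcodes. With 2 and 3 embryos, p-values measure only the spread between these libraries, and intervals and zero limits cover counting error only.

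The transcripts of the 6 genes were concentrated in very few cells. To find those cells without using the 6 genes, 16 other neuroendocrine genes served as anchors, among them Insm1, Scg2, Scg3, Pcsk1, Pcsk2, Ptprn, Ptprn2, Cadps, Ddc, Grp, Tph1, Snap25, Syt1, Cplx2 and Stmn2. Of the 5016 gated cells, 10 had UMIs of 6 or more anchors, a limit chosen after the values were seen. The Het libraries held 5 and 1 of them, and the KO-labelled ones 0, 2 and 2. Just outside the limit, the 5 cells with exactly 5 anchors held none of the 6 genes. Just inside it, no cell had exactly 6 anchors, and the 2 cells with 7 held 3 and 4 of the genes. All 10 anchor-rich cells held at least 3 of the 6 genes, and 4 of them held all 6. Among the other 5006 gated cells, 1 held 3 of the genes, 5 held 2, and the rest held 1 or none.

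**Figure D1:**
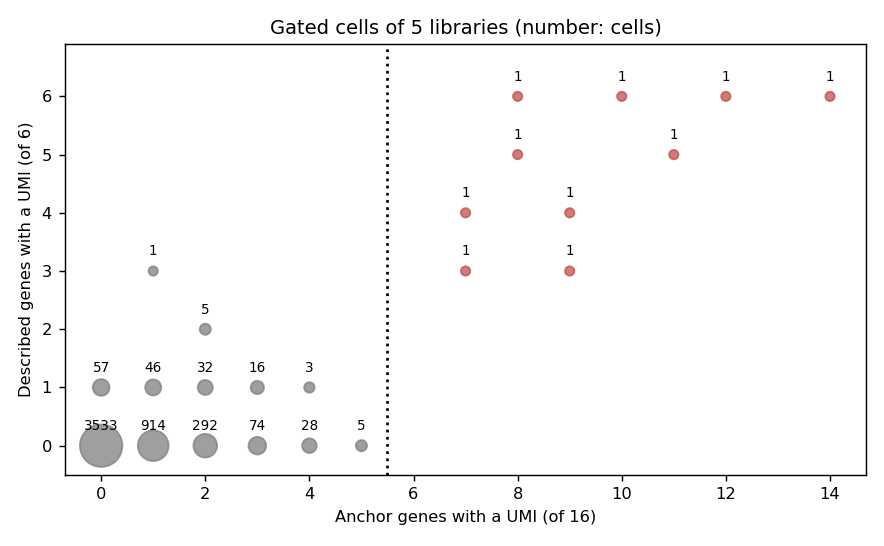
Gated cells of the 5 libraries placed by the number of anchor genes with a UMI (x axis, of 16) and the number of the 6 described genes with a UMI (y axis). The area of a circle grows with the number of cells printed above it, and the dotted line marks the limit of 6 anchors. The 10 cells to its right (red) hold 3 to 6 of the described genes, and the 126 cells with 3 to 5 anchors hold at most 1.

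The cells were chosen by the anchors, so which anchors they held is a description. Insm1 (a zinc-finger factor of endocrine differentiation), Pcsk1 (a prohormone convertase) and Cplx2 (a regulator of vesicle fusion) were found in 10 of 10. Scg2 and Ptprn were found in 9, Scg3 and Ddc in 8, Snap25 in 7 and Syt1 in 6, whereas Grp, a neuroendocrine peptide best known from the human lung, was found in 0 and Stmn2 in 1. Of genes that the choice did not use, Nkx2-1, the lung epithelial factor, was found in 9 of the 10. Epcam, a gene of the gate, was at 10 to 154 UMIs. No cell held more than 2 of 10 neuronal and glial markers, though 1 of these markers, Elavl4, was found in 8 of the 10 cells. Neurod1 and Nkx2-2, which act in endocrine differentiation in other organs, had 0 UMIs in all gated cells.

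The 10 cells differed widely among themselves. The deepest Het1 cell, with 121848 UMIs, held 109 UMIs of Calca, 1 of Chga, 6 of Chgb, 18 of Resp18, 14 of Scg5 and 7 of Syp. It also held 16 UMIs of Foxj1 and all 8 ciliated cell markers. The Het2 cell, with 87719 UMIs, showed another order, with 2 UMIs of Calca against 4 of Chga, 9 of Chgb, 5 of Resp18, 21 of Scg5 and 6 of Syp. Calca thus had the most UMIs of the 6 genes in the former cell and the fewest in the latter.

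Cells of ordinary depth also spanned a wide range. A KO3 cell of 11382 UMIs held 77 UMIs of Calca and 14 of Resp18, with 2 of Chga, 0 of Chgb, 3 of Scg5 and 0 of Syp. A Het1 cell of 14164 UMIs was much like it, with 37 UMIs of Calca, 13 of Resp18, 1 of Syp and none of the other 3 genes. At the low end for Calca was a KO2 cell of 14764 UMIs, which held no Calca but 1 UMI of Chga, 4 of Chgb, 2 of Resp18 and 6 of Scg5. Calca spanned 0.00 to 67.65 UMIs per 10000 over the 10 cells, and high and low cells were found under both genotypes.

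The other 5 cells held 9 to 24 UMIs of the 6 genes in all. Het1 cells of 9078 and 9846 UMIs held 2 and 5 UMIs of Calca with 5 and 6 of the genes found, and KO cells of 25018 and 15501 UMIs held 10 and 7 with 6 and 5 found. A Het1 cell of 41927 UMIs held 8 UMIs of Calca, 4 of Chgb and 1 of Resp18. That cell had 5 UMIs of Ptprc, the pan-leukocyte gene, all 5 immune markers and 13.5% mitochondrial UMIs. Whether its barcode held more than 1 cell was not tested.

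**Figure D2:**
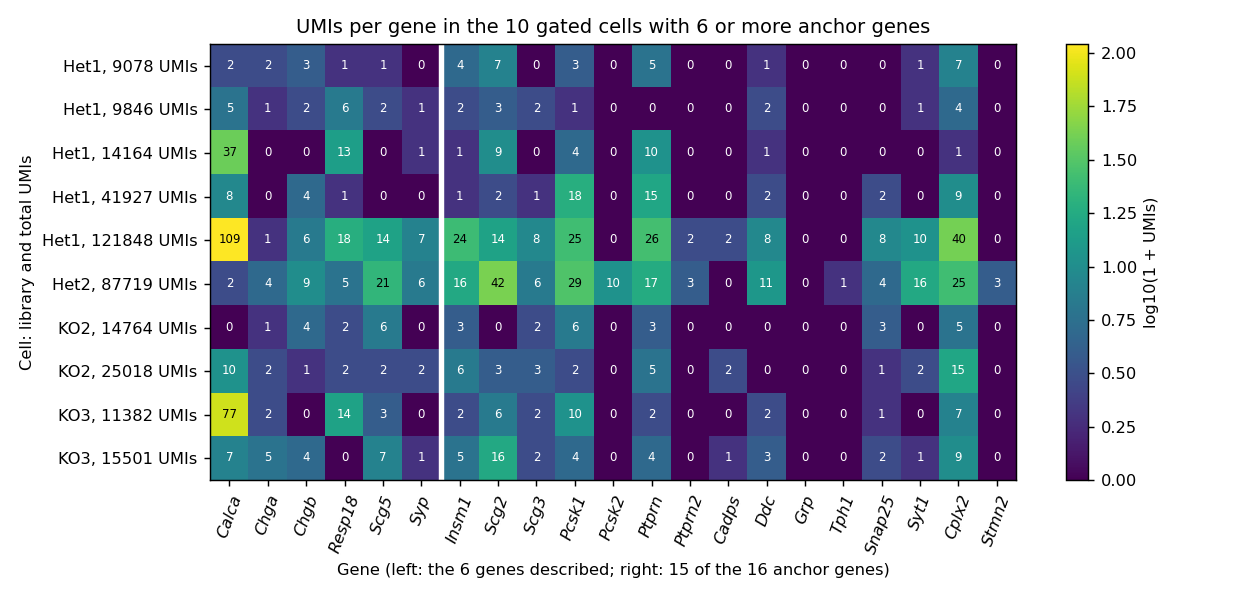
UMIs of the 6 described genes (left of the white line) and 15 of the 16 anchor genes (right) in each of the 10 anchor-rich gated cells, with 1 row per cell labelled by library and total UMIs. Colour is log10(1 + UMIs) and the number is the UMI count. Calca runs from 0 to 109 UMIs, while Insm1, Pcsk1 and Cplx2 are above 0 in every row.

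Of all gated UMIs of the 6 genes, 444 of 796 (55.8%) lay in these 10 cells. The share was 95.4% for Resp18, 81.8% for Chga, 76.7% for Chgb, 67.5% for Scg5, 51.1% for Calca and 22.5% for Syp. The granule genes were thus the most restricted and Syp the least. By library the share over the 6 genes was 61.9% and 44.8% in the Het libraries against 0.00%, 36.4% and 66.3% in the KO-labelled ones.

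The levels of the genes in all gated cells follow by role, the granule genes first. They are CPM of the gated UMIs, set side by side for a gene across libraries. In such sums, fewer cells of a type and less RNA per cell cannot be told apart. Chga (ENSMUSG00000021194, GRCm38 chromosome 12, 102554969 to 102565028, plus strand) had 4 and 5 UMIs in the Het libraries against 2, 4 and 7 in the KO-labelled ones. Its level was 0.158 ± 0.028 (SD, n = 2) for Het and 0.187 ± 0.060 (SD, n = 3) for KO-labelled libraries. The groups overlapped, and Chga was too low for the fit across genes.

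Chgb (ENSMUSG00000027350, chromosome 2, 132781278 to 132795079, plus strand) had 17 and 13 UMIs in the Het libraries against 0, 6 and 7 in the KO-labelled ones. Its level was 0.524 ± 0.088 (SD, n = 2) for Het and 0.171 ± 0.148 (SD, n = 3) for KO-labelled libraries. Both Het libraries lay above all 3 others, and the fitted log2 fold change was -1.47 (SE 0.69). Chgb and Syp were the 2 of the 5 fitted genes whose groups did not overlap, where 40.5% of all 16373 genes tested had groups that did not overlap. The genes were chosen on this contrast, so nothing is read from that count.

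Scg5 (ENSMUSG00000023236, chromosome 2, 113776362 to 113829121, minus strand) had 21 and 26 UMIs in the Het libraries against 2, 11 and 23 in the KO-labelled ones. KO3 lay among the Het libraries and KO1 far below. The mean was 0.824 ± 0.142 (SD, n = 2) for Het and 0.480 ± 0.348 (SD, n = 3) for KO-labelled libraries, with a log2 fold change of -0.71 (SE 0.57). It was -0.04 with the sex of the embryo in the model and -1.34 without KO3.

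Resp18 (ENSMUSG00000033061, chromosome 1, 75272199 to 75278415, minus strand) had 39 and 6 UMIs in the Het libraries against 1, 4 and 15 in the KO-labelled ones. It lies beside Ptprn (75247027 to 75264502), the gene of the granule membrane protein it resembles. The groups overlapped, with a mean of 0.779 ± 0.80 (SD, n = 2) for Het and 0.260 ± 0.248 (SD, n = 3) for KO-labelled libraries. Its log2 fold change of -1.46 (SE 0.92) became 0.38 without Het1, so Het1 decides its sign. All 39 UMIs of Het1 lay in its 5 anchor-rich cells.

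Calca (ENSMUSG00000030669, chromosome 7, 114631478 to 114636357, minus strand) had the most UMIs of the 6, with 294 and 35 in the Het libraries against 15, 48 and 111 in the KO-labelled ones. Its positive cells were far more even, at 22 and 17 in the Het libraries against 12, 13 and 18 in the KO-labelled ones. The level of Calca was 5.69 ± 6.28 (SD, n = 2) for Het and 2.36 ± 1.52 (SD, n = 3) for KO-labelled libraries, and the groups overlapped. The log2 fold change was -1.26 (SE 0.85), against 0.92 without Het1 and -2.09 without Het2, so Het1 decides its sign too. The counts per gene do not separate the calcitonin from the CGRP transcript of Calca, and how reads shared with its paralog Calcb were counted is not given in the sources used here, which leaves its level uncertain.

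Syp (ENSMUSG00000031144, chromosome X, 7638471 to 7653256, plus strand) had 21 and 20 UMIs in the Het libraries against 6, 15 and 18 in the KO-labelled ones. Its level was 0.717 ± 0.008 (SD, n = 2) for Het and 0.567 ± 0.144 (SD, n = 3) for KO-labelled libraries, and the 2 Het libraries were the highest. The log2 fold change was -0.34 (SE 0.34), and 0.19 with the 10 anchor-rich cells left out. Syp was also the member least tied to those cells, found in 6 of them and in 54 other gated cells. In 49 of the 54 it had 1 UMI, and their median depth was 58553.5 UMIs against 15563.5 in gated cells with no Syp.

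**Figure D3:**
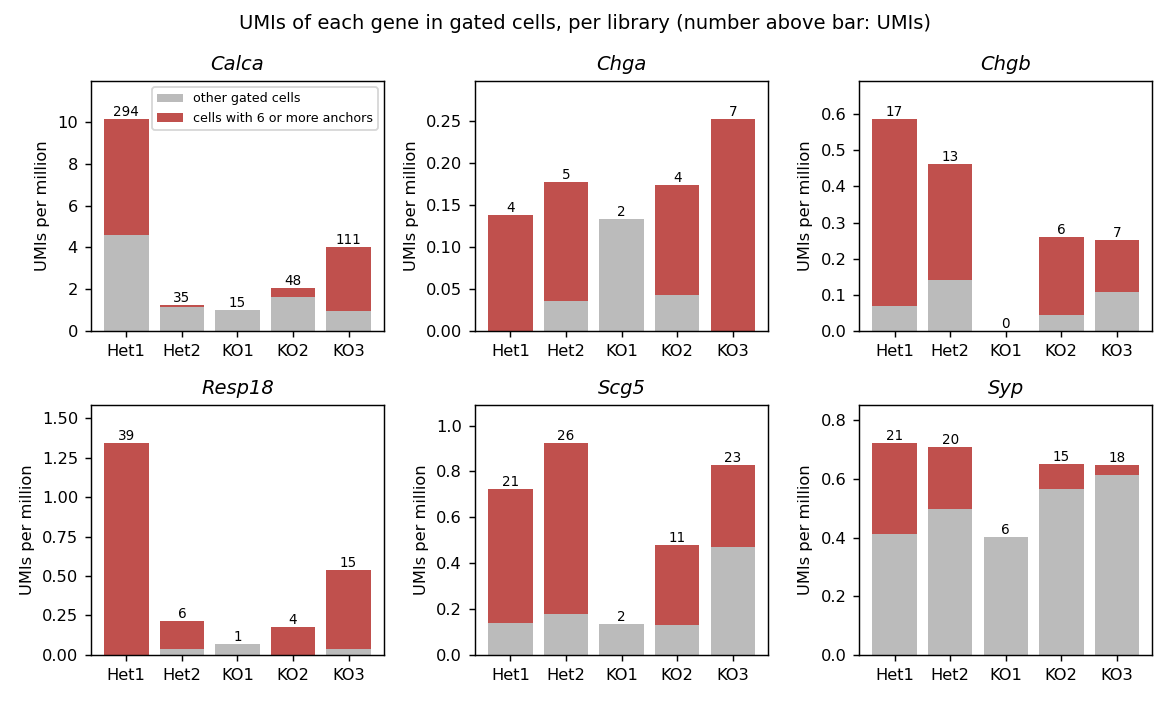
UMIs per 1000000 gated UMIs (CPM, y axis) of each gene in the 5 libraries (x axis), with the UMI count above each bar. Red is the portion in cells with 6 or more anchors and grey the portion in other gated cells. KO1 has no red portion for any gene, and Het1 has the highest bar for Calca and Resp18.

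The direction depended on the gate for 3 of the genes. With gated cells that held Ptprc, Pecam1 or Col1a2 left out, 595 and 441 cells of the Het libraries and 280, 263 and 278 of the KO-labelled ones remained, and only Calca passed the low-count filter, at -1.52. Scg5 then had 3 and 0 UMIs in the Het libraries against 0, 10 and 8 in the KO-labelled ones, a mean of 0.172 ± 0.243 (SD, n = 2) against 1.20 ± 1.06 CPM (SD, n = 3). Chgb was at 0.308 ± 0.211 (SD, n = 2) against 0.602 ± 0.531 CPM (SD, n = 3) and Syp at 0.308 ± 0.211 (SD, n = 2) against 0.549 ± 0.402 CPM (SD, n = 3). The means of Chgb, Scg5 and Syp thus turned to higher in the KO-labelled libraries, with overlapping groups and at most 10 UMIs per library. Chga was higher there too, at 1 and 1 against 1, 3 and 5 UMIs. Of the anchor-rich cells, this gate left out those of 9078, 41927 and 121848 UMIs in Het1, 87719 in Het2 and 11382 in KO3. In that order they held 1, 0, 14, 21 and 3 UMIs of Scg5 and 3, 4, 6, 9 and 0 of Chgb. They held 0, 0, 7, 6 and 0 UMIs of Syp.

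The highest Calca cells shaped the Het1 value. Outside the anchor-rich cells, 6 gated cells held 5 or more UMIs of Calca and 163 in all, 110 of them in 1 Het1 cell. That cell also held 3 UMIs of Ptprc, 15 of Il7r (a cytokine receptor of lymphoid cells) and 27 of Gata3 (a factor of type 2 lymphocytes), and had 1 UMI of Epcam and 0 anchors. Another 4 of the 6 held 99 to 172 UMIs of Cpa3, the mast cell carboxypeptidase. None of the 6 cells had a UMI of Chga, Chgb, Resp18, Scg5 or Syp.

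Among gated cells, joint detection of the genes was almost wholly a matter of the 10 cells. Chga and Scg5 were found together in 8 cells, 66.7% of the Chga-positive and 25.8% of the Scg5-positive gated cells, and all 8 were anchor-rich. Chga and Resp18 were together in 7 cells, 58.3% of the positive cells of each gene, again all anchor-rich. Chga and Chgb shared 7 cells, 58.3% of the former and 38.9% of the latter. Calca and Scg5 shared the most cells, 10, of which 3 were not anchor-rich, and these made up 12.2% of the Calca-positive and 32.3% of the Scg5-positive cells. Scg5 and Syp shared 5 cells, 16.1% and 8.3% of their positive cells. By library, Chga and Scg5 met in 3 cells of Het1, 1 of Het2, 0 of KO1, 2 of KO2 and 2 of KO3.

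The gated cell outside the 10 that held 3 of the genes was from KO1, the library with no anchor-rich cell. It had 130322 UMIs, 1 UMI each of Calca, Chga and Syp, 1 anchor, 2215 UMIs of Acta2 (smooth muscle actin) and 341 of Col1a2 (a fibroblast collagen). In KO1 the genes were thus present as scattered molecules, 26 UMIs in 20 of 714 gated cells, with 15 UMIs of Calca and 0 of Chgb.

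Outside the gate the 6 genes parted. Of the UMIs in all kept cells, the gated cells held 92.9% for Resp18, 64.3% for Scg5, 62.3% for Chgb, 56.4% for Chga, 44.7% for Syp and 24.4% for Calca. Ungated cells with Ptprc, called immune cells here, held 68.3% of the Calca UMIs and 0 of the Resp18 UMIs. The 0 immune cells with Resp18 had exact binomial 95% upper bounds of 0.198% to 0.447% per library. Ungated cells with Col1a2 held 29.1% of the Syp UMIs.

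**Figure D4:**
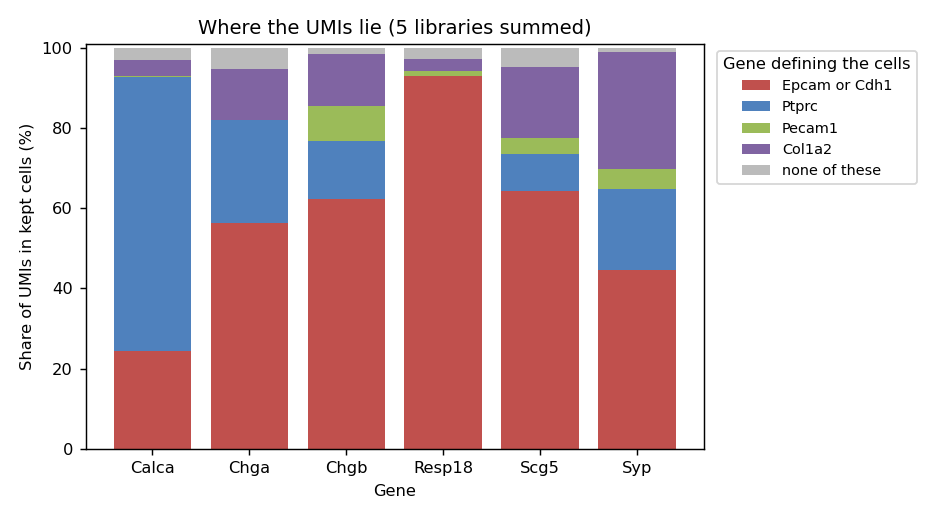
Percent of each gene's UMIs in kept cells (y axis), summed over the 5 libraries, by the gene that defines the cells: Epcam or Cdh1 first, then Ptprc, Pecam1, Col1a2 or none of these. Resp18 is at 92.9% in the Epcam or Cdh1 cells, and Calca is at 68.3% in the Ptprc cells.

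The immune Calca was concentrated too. Outside the gate 36 kept cells held 5 or more Calca UMIs, 1397 in all and up to 183 in a cell, and they came from every library, 9 and 11 from the Het libraries against 3, 6 and 7 from the KO-labelled ones. Ptprc was found in 33 of them, Il7r in 30 (83.3%), Gata3 in 19 and Cpa3 in 16. Among the 7183 ungated Ptprc cells without Calca, Il7r was found in 3.2%, Gata3 in 0.5% and Cpa3 in 0.9%. No cell of the 36 held Chga, Chgb, Resp18 or Syp, and 2 held Scg5. A Calca UMI alone therefore did not mark a cell with the other 5 genes in these lungs.

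Shares of positive cells were set beside those of immune cells, which should lack the 6 genes other than Calca. Among gated cells 1.64% had Calca, 1.20% Syp, 0.618% Scg5, 0.359% Chgb, 0.239% Chga and 0.239% Resp18. Among immune cells, whose median depth was 11184 to 13043.5 UMIs per library, the shares were 1.31%, 0.467%, 0.124%, 0.082%, 0.069% and 0.00% in the same order. In red-cell barcodes Calca was found in 0.095% to 0.643% per library. With every cell thinned to 2000 UMIs, which left out 37 to 107 gated cells per library, any of the 6 genes was found in 0.486% and 0.369% of gated cells of the Het libraries against 0.00%, 0.927% and 0.710% of the KO-labelled ones. The same share of immune cells was 0.712% and 0.617% against 0.501%, 0.929% and 0.678%. Without thinning the gated shares were 2.76% and 3.63% against 2.80%, 3.72% and 4.11%. Immune cells then had 1.399% and 1.555% against 2.913%, 1.686% and 2.888%, so the gated share was the lower in KO1 alone. At 2000 UMIs per cell the gated share was the lower in Het1, Het2 and KO1, level in KO2 and the higher in KO3. At 5000 UMIs per cell it was 1.25% and 1.11% in the Het libraries against 1.07%, 1.28% and 0.849% in the KO-labelled ones, where immune cells had 0.935% and 0.720% against 1.16%, 0.879% and 1.43%. The gated share was then the higher in Het1, Het2 and KO2 and the lower in KO1 and KO3, so the order of the compartments differed between the depths. Most of the immune cells found held Calca at either depth. The anchor-rich cells stood out by amount, with 9 to 155 UMIs of the 6 genes each.

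The share of cells with neuroendocrine anchors was compared between genotypes without use of the 6 genes. The share planned was that of gated cells with at least 3 anchors. It was 2.91% and 4.07% in the Het libraries (39 and 46 cells) against 1.26%, 2.11% and 2.44% in the KO-labelled ones (9, 17 and 25 cells). The means were 3.49% ± 0.82 (SD, n = 2) and 1.94% ± 0.61 (SD, n = 3), and the groups did not overlap. The exact two-sided permutation p was 0.2, the smallest that 2 against 3 libraries can give, so the design cannot reach 0.05. With every cell thinned to 2000 UMIs, this share was 0.324% and 0.092% in the Het libraries against 0.00%, 0.132% and 0.203% in the KO-labelled ones. The groups then overlapped (exact permutation p 0.6). With at least 2 anchors the groups overlapped, at 9.165% and 9.814% in the Het libraries against 7.843%, 9.677% and 9.482% in the KO-labelled ones, with an exact permutation p of 0.8. With gated cells that held Ptprc, Pecam1 or Col1a2 left out, the difference changed sign, from -1.55 to 0.127 percentage points (exact permutation p 0.8).

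That share was not one of cells with the 6 genes. Of the 136 cells, 126 had 3 to 5 anchors, and 107 of these held none of the 6 genes. Their median depth was 92358.5 UMIs against 15656 in the gate. They owed their place to Ddc (86.5% of them), Cplx2 (77.0%), Grp (68.3%) and Stmn2 (61.9%), while Insm1 was found in 4.0%. The share with 6 or more anchors was 0.373% in Het1 (95% exact binomial interval 0.121 to 0.867) and 0.088% in Het2 (0.002 to 0.492). It was 0.248% in KO2 (0.030 to 0.893) and 0.196% in KO3 (0.024 to 0.704), and 0 of 714 cells in KO1, where the exact upper bound is 0.515% and a limit of 3 counts allows a share of up to 0.420%. The mean difference was -0.08 percentage points (exact permutation p 0.6, two-sided), and the intervals of all 5 libraries overlapped. A difference in the share of anchor-rich cells was not detectable with 0 to 5 of them per library.

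The other neuroendocrine genes were tested in the gated sums with edgeR across all genes. Of 16373 genes tested, 252 passed an adjusted p of 0.05 (1.54%), 64 higher (0.391%) and 188 lower (1.15%) in KO-labelled libraries. Of the 46 other neuroendocrine genes, 37 were tested and 1 passed, Piezo2, which was lower. None was higher. At an unadjusted p under 0.05 edgeR gave 2 higher and 11 lower, where 9.23% of all genes tested were higher and 11.3% lower (20.6% in all). DESeq2 gave an adjusted p to 31 of the 37, with 0 higher and 5 lower, where 2.6% of the 15098 genes with one were higher and 4.76% lower (7.37% in all). The median log2 fold change of the 37 was -0.21, against 0.01 over all genes tested, with 24 below 0 and 13 above. The list was drawn up with earlier results of these data known, so its median is a description.

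Piezo2 (ENSMUSG00000041482, chromosome 18, 63010213 to 63387183, minus strand) encodes a mechanically gated ion channel of airway sensory cells that endothelium also expresses. It was at 37.1 and 35.5 TMM-scaled CPM in the Het libraries against 16.7, 14.0 and 18.7 in the KO-labelled ones. Both Het libraries lay far above the other 3, with a log2 fold change of -1.14 (SE 0.13, edgeR adjusted p 0.0276). Of its gated UMIs 8.6% lay in the anchor-rich cells. The 5 endothelial markers moved with it in the gate, at 583 and 607 CPM in sum in the Het libraries against 260, 212 and 340 in the KO-labelled ones. With gated cells that held Ptprc, Pecam1 or Col1a2 left out, the log2 fold change was 1.07 (adjusted p 0.566). The edgeR adjusted p was also 0.166 without Het1, 0.193 without Het2, 0.0637 without KO1, 0.0807 with the sex of the embryo in the model and 0.05, just missing the threshold, when barcodes needed 1000 genes and mitochondrial UMIs of 10% or less. Over all kept cells the log2 fold change was -0.38 (0.142).

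No transcription factor of the list passed in edgeR. Insm1, with 37 and 16 UMIs in the Het libraries against 1, 11 and 10 in the KO-labelled ones, had a log2 fold change of -1.54 (edgeR adjusted p 0.236). Hes6, a Hes-family factor of neural differentiation with 0.7% of its UMIs in the anchor-rich cells, was at -0.42 (0.162). Prox1 was at 1.31 (0.305), with 808 of its 1438 UMIs in KO3.

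The other granule genes differed in how far they were confined to the anchor-rich cells. Pcsk1 had 53 and 31 UMIs in the Het libraries against 0, 9 and 14 in the KO-labelled ones, with 95.3% in the 10 cells and a log2 fold change of -2.16 (edgeR adjusted p 0.162). Scg2, a chromogranin relative, had 36 and 48 against 0, 3 and 23, with 92.7% in the 10 cells and a log2 fold change of -2.03 (0.251). Cpe and Pam, which trim and amidate peptides in many cell types, had 0.3% and 1.6% of their UMIs in those cells and stood at 0.80 (0.482) and -0.12 (0.783). Of the 8 granule genes tested none passed, with 6 below 0 and a median of -0.29.

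Of the 4 Notch ligands, all lay below 0 and none passed in edgeR, the nearest being Jag2 at -0.45 (edgeR adjusted p 0.0649). DESeq2 passed Jag2 (adjusted p 0.0153), and its sign turned, at 0.018, in the gate without Ptprc, Pecam1 or Col1a2 cells. Among the peptide and amine genes 5 of 7 lay below 0 with a median of -0.18, and none passed. Ddc, the decarboxylase of serotonin synthesis, was at -0.32 (edgeR adjusted p 0.288) with 1.7% of its UMIs in the anchor-rich cells. Calcb had 23 and 45 UMIs in the Het libraries against 6, 5 and 13 in the KO-labelled ones, and was found in 1 of those cells, where its paralog Calca was found in 9. Of the 7 vesicle fusion genes tested, 3 lay below 0, with Syt7, a calcium sensor of granule release, at -0.21 (edgeR adjusted p 0.564) and Rab3d at -0.19 (0.343). The remaining neuronal genes had 3 of 7 below 0. Bex2 was at -0.84 (edgeR adjusted p 0.0946) and Stmn2, a tubulin-binding protein of neurites, at -1.42 (0.168), with 0.6% and 0.2% of their UMIs in the anchor-rich cells. DESeq2 passed both, with adjusted p of 0.00129 for Bex2 and 0.03 for Stmn2. Stmn2 also passed in edgeR at -2.84 (adjusted p 0.00698) with at least 2 Epcam and Cdh1 UMIs required and at -2.12 (0.036) without KO3, and was at -0.26 (0.316) over all kept cells.

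**Figure D5:**
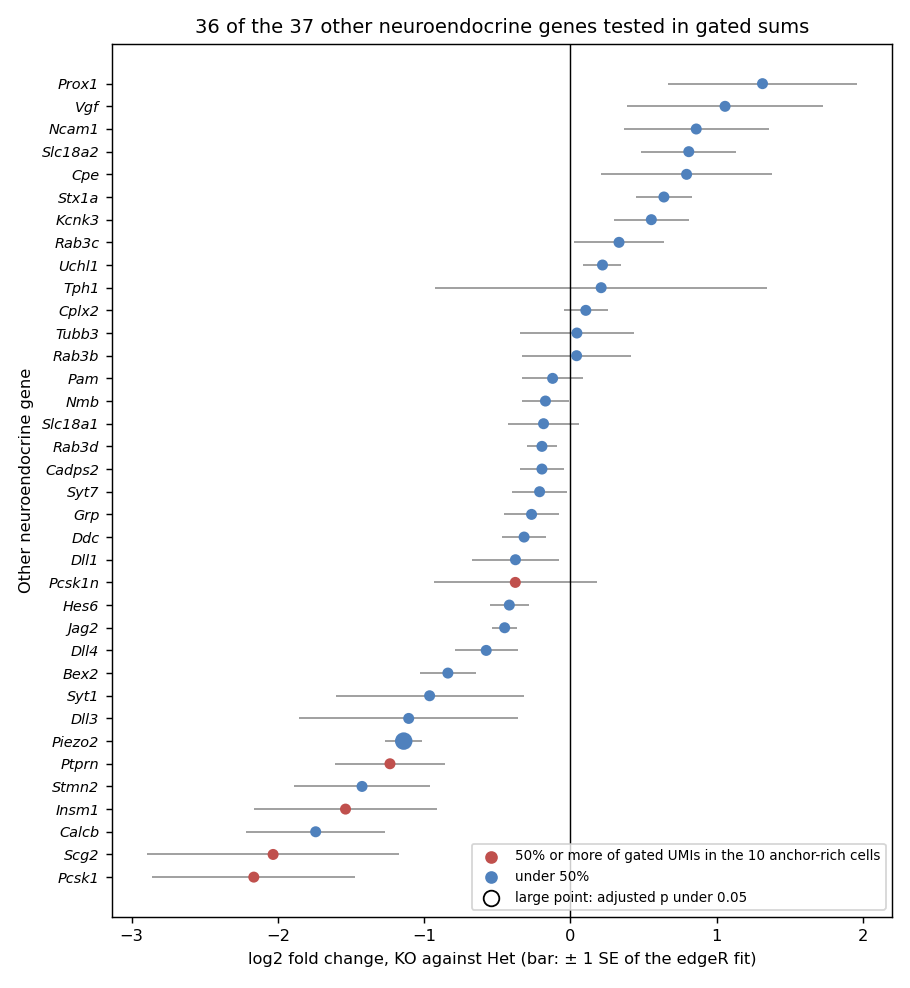
Fitted log2 fold change of KO-labelled against Het libraries (x axis, with bars of 1 SE of the edgeR fit) for 36 of the 37 tested neuroendocrine genes other than the 6 described. Red points are genes with 50% or more of their gated UMIs in the 10 anchor-rich cells, and the large point, Piezo2 at -1.14, is the gene past edgeR's adjusted p of 0.05. All 5 red points lie left of 0, where 7945 of all 16373 genes tested lay. These 5 genes draw on the same 10 cells, so their signs are not separate results. Pcsk1n, a gene among them, turned to 0.37 without Het1.

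The genes most like the 6 across gated cells were ranked by Pearson correlation with the mean of the 6 on the log(1 + UMIs per 10000) scale. The ranking ran over 5016 cells and 17183 genes found in at least 20 gated cells, and the cells share libraries and depth. Among the 10 closest were Insm1 (r 0.814), Col8a1 (0.803), Pex5l (0.737), Spock3 (0.705), Dner (0.649), Nfasc (0.634), Pcsk1n (0.627), Ptprn (0.586) and Lrp11 (0.583). Insm1, Col8a1, Pex5l and Lrp11 were found in 10 of the 10 anchor-rich cells, Spock3, Dner and Ptprn in 9, Pcsk1n in 8 and Nfasc in 7. Insm1 and Ptprn are anchors, so their presence there follows in part from how the cells were chosen. Col8a1 encodes a short-chain collagen and Nfasc a neuronal adhesion molecule, and 6 of the 10 genes were on no neuroendocrine list used here. The 10 genes were found in 20 to 89 gated cells each.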

How the data were processed

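Single-cell RNA from 5 lungs was deposited as whole-number UMI counts for each barcode. Per the submitters' processing notes the authors used Cell Ranger 4.0.0 and mm10, and their barcode filter is not given in the sources used here. A barcode was kept from 500 genes upwards and with mitochondrial UMIs of 15% or less, and the highest simulated-doublet scores were removed at 0.8% per 1000 cells (78 to 186 barcodes per library). Red-cell barcodes had over 50% haemoglobin UMIs and under 500 genes. Kept cells with Epcam or Cdh1 were gated, and their UMIs were summed per library, since cells are not replicates. The sums were fitted with edgeR 4.0.16 in R 4.3.3 (quasi-likelihood, TMM, low-count filter, genotype alone, two-sided, Benjamini-Hochberg over 16373 genes). On simulated data this fit recovered 74.5% of 200 genes changed by a log2 value of 1, with 9 false calls among 16133 genes. The simulation gave every gene the same dispersion (0.03) and changed none of the lowest genes. Its rate is therefore not that for low genes confined to a few cells.

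The 6 genes and all lists were chosen with earlier results of these data known. Of the other 46 neuroendocrine genes, those past the threshold and the 10 with the most UMIs per cell with 3 or more anchors were named, as were the 10 genes most like the 6. Insm1, Pcsk1, Scg2, Prox1, Calcb, Neurod1, Nkx2-2 and the neuronal marker Elavl4 were named after their values were seen. Some genes that the lists and counts include are not reported here by name. Gene coordinates are those of GENCODE M21 (GRCm38), counted from 1, and promoter sequence is RefSeq's. Alternatives were DESeq2 1.42.0, scaling by library size alone, other low-count and barcode filters, other gates and anchor limits, doublets kept, the sex of the embryo or a replicate block in the model, thinning to 5000 UMIs, and each library left out. Shares were compared by exact permutation.

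The replicate numbers were checked for pairing, and same-numbered libraries did not deviate together, though 2 Het libraries are too few for this check to exclude pairing. Clusters were not made and cell types were not named from them.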

Additional observations from a re-analysis of the deposited data

How the results depend on the processing

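The count of 252 genes past the threshold in the gated sums was 394 with genes of at least 1 UMI tested, 770 with at least 2 Epcam and Cdh1 UMIs required, 69 without Ptprc, Pecam1 or Col1a2 cells (42% higher in KO-labelled libraries, against 25.4%), 692 over all kept cells, 10 with the sex of the embryo in the model and 1112 with DESeq2 (35.3% higher). Leaving out 1 library gave 1 to 184 genes, the fewest without Het1 (1) and Het2 (4), then KO2 (47), KO1 (60) and KO3 (184). With a replicate block the count was 122. The deviations of same-numbered libraries from their group means correlated at -0.004 and -0.27. With 2 Het libraries the Het deviations mirror each other, so this check cannot exclude pairing. The block changed the call of no gene named by rule. In the gate without Ptprc, Pecam1 or Col1a2 cells the sign turned for Piezo2 (1.07), Pam (0.42), Jag2 (0.018), Syt7 (0.14) and Ddc (0.043), and the share of cells with at least 3 anchors turned to 0.127 percentage points. It was -2.13 to -0.97 with 1 library left out and -0.096 with cells thinned to 2000 UMIs. With 1 library left out, Pam ran from -0.336 to 0.031 (without KO2) and Syt7 from -0.447 to 0.07 (without Het1), and Syt7 was at 0.069 with the anchor-rich cells left out. The cause of these turns was not tested. Piezo2 lost its call over all kept cells (-0.38), and the share with at least 2 anchors differed by -0.489 percentage points (exact permutation p 0.8).

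Of the 6 described genes, Calca ran from -2.09 to 0.92, Resp18 from -2.25 to 0.38, Chgb from -1.88 to -0.58, Scg5 from -1.47 to -0.04 and Syp from -0.47 to 0.19 over the alternatives in which each passed the low-count filter. That leaves out the gate without Ptprc, Pecam1 or Col1a2 cells for all but Calca, and there the mean levels of Chgb (0.308 against 0.602 CPM), Scg5 (0.172 against 1.20) and Syp (0.308 against 0.549) turned to higher in KO-labelled libraries. With the anchor-rich cells left out only Calca (-1.30) and Syp (0.19) passed it. The difference in the share of gated cells with any of the 6 genes was 0.118 percentage points at 2000 UMIs per cell, -0.117 at 5000, 0.352 at full depth, and -0.073 to 0.391 with 1 library left out. Leaving out anchor-rich cells, the limit of 6 anchors, the 25% mitochondrial limit and the full-depth share were chosen after seeing the data. The main limits are the 10 anchor-rich cells in all, 0 to 5 per library, the lack of wild-type lungs, and the female embryos lying in the KO group alone.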

Other observations

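Barcodes with 6 or more anchors were also found on both sides of the gate. Outside it, 3 kept cells without Epcam or Cdh1, from Het1 (19045 UMIs), KO2 (32637 UMIs) and KO3 (14709 UMIs), held 4, 6 and 6 of the 10 neuronal and glial markers. They held 23, 20 and 71 UMIs of Stmn2 and none of Calca, Insm1 or Pcsk1. Of the other described genes they held 4, 5 and 1 UMIs of Chga, 0, 3 and 0 of Chgb and 0, 0 and 2 of Resp18. They held 0, 4 and 6 UMIs of Scg5 and 1, 0 and 2 of Syp. In all, 2, 3 and 4 of the 6 described genes were found in them.

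A further 3 barcodes with Epcam or Cdh1 and 6 or more anchors failed the filter on mitochondrial UMIs, from Het2 (1489 UMIs, 19.88% mitochondrial), KO2 (19841 UMIs, 15.57%) and KO3 (28163 UMIs, 18.27%). The KO2 barcode held 45 UMIs of Calca, 1 of Chgb, 2 of Resp18 and 6 of Scg5. The KO3 barcode held 1 UMI of Calca, 1 of Chga, 7 of Chgb, 2 of Resp18, 9 of Scg5 and 4 of Syp. With a limit of 25% mitochondrial UMIs, chosen after seeing the data, the cells with 6 or more anchors numbered 5 and 2 in the Het libraries against 0, 3 and 3 in the KO-labelled ones.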
